A study of Drosophila melanogaster with 21 samples.

Results

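The odorant, gustatory and ionotropic receptor genes were followed in single heads of female Drosophila melanogaster. Members were the rows of the deposited table whose current FlyBase symbol was Orco, or Or, Gr or Ir followed by a map number and a letter. This rule found 187 of 17559 genes: 61 odorant receptors (Or) including Orco, 60 gustatory receptors (Gr) and 66 ionotropic receptors (Ir). RNA was measured in 21 libraries, each from 1 head. They comprised 5 naive heads from fed flies that were not trained, 5 starved_naive heads from food-deprived flies that were not trained, 6 starved_trained_1hr heads and 5 starved_trained_4hr heads. The trained flies were also starved, were trained with an odor (octanol) and sucrose, and were collected 1 or 4 hours afterwards. These groups are called naive, starved, 1-hour and 4-hour heads below. The starved heads serve as the reference for training, and the naive heads carry neither starvation nor training. Trained heads differ from starved heads in odor, sucrose and hours after training (0 against 1 or 4), which cannot be told apart here. The odor-only and L-sorbose controls that the paper describes are not among these 21 heads. The age and strain of the sequenced flies are not given in the sources used here.

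Odorant receptors form cation channels in which a tuning receptor pairs with the co-receptor Orco, and they sit in olfactory neurons of the antennae and of the maxillary palps, a pair of small appendages beside the proboscis. Gustatory receptors detect sugars, bitter compounds and, in the antenna, carbon dioxide. Ionotropic receptors derive from ionotropic glutamate receptors, work with the co-receptors Ir8a, Ir25a and Ir76b, and serve smell, taste, humidity and temperature sensing. Each tuning receptor is usually made by a small class of neurons, so its RNA is a minor part of a whole head.

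Levels are given in RPKM, reads scaled to gene length and library size, as deposited. The deposited values were whole multiples of 1 read, so the reads behind each level could be recovered. The heads held 36019292 to 67792553 recovered reads each. Neuronal and eye RNA was present in every head: elav, a neuronal RNA-binding protein, had 18.7 to 23.8 RPKM and ninaE, the major rhodopsin, had 8549 to 15139 RPKM. Nothing in the labels says that the heads came from separate cultures, so p-values measure the spread between single heads. Fat body RNA varied between heads. Lsp2, a storage protein of the fat body, had 2.47 to 1891 RPKM in naive heads, 0.814 to 3.44 RPKM in starved heads, 0.901 to 3.51 RPKM in 1-hour heads and 0.794 to 5.03 RPKM in 4-hour heads. In whole heads, fewer cells of a type and less RNA per cell cannot be told apart.

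Of the 187 receptor genes, 27 (14.4%) reached an RPKM of 1 in at least 5 of the 21 heads, against 10501 (59.8%) of all 17559 genes. These 27 were 11 Or, 11 Ir and 5 Gr genes. The median receptor gene had a median of 0.0470 RPKM over the 21 heads, with 0.0470 RPKM for Or, 0.0674 RPKM for Gr and 0.0323 RPKM for Ir genes. No member was without reads in all heads, but 90 had at most 10 reads in every head, and 63 stayed below 0.1 RPKM throughout. The threshold was a narrow one for several genes. Gr64b and Gr64c reached it in 9 heads, Or46a in 6, and Or59c and Or85e in 7 each. Just outside it were Ir75a, at 1 RPKM or more in 3 heads, and Ir75b, in 2 heads.

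The highest levels per length belonged to Or43b, an antennal odorant receptor, at a median of 10.3 RPKM (8.54 to 12.1), and to Ir85a, at 9.79 RPKM (7.93 to 13.0). They were followed by Ir76a, a receptor of antennal coeloconic neurons, at 8.48 RPKM, Ir40a, a receptor of dry-sensing neurons, at 7.53 RPKM, Ir62a at 6.23 RPKM and Ir41a at 4.07 RPKM. The ranges of Or43b and Ir85a over heads overlapped, as did those of Ir76a and Ir40a, so the order of these neighbours is within the spread between heads. The libraries did not keep strand, so reads from a gene that overlaps a receptor gene on either strand cannot be told from its own. In the BDGP6.54 annotation, Or43b shares 575 exonic nt with Cul1 (37.1 RPKM in the median head), and Ir85a shares 232 nt with Pif1A and Pif1B (62.3 and 66.4 RPKM) and lies within both. Ir76a shares 297 nt with CG14102 (2.37 RPKM), and Ir62a lies within Iml1 on the same strand (24.6 RPKM). Of the 27 genes, 16 overlap the exons or lie within the span of another annotated gene, and 11 do not. The 11 without overlap are Orco, Or13a, Or63a, Or82a, Or85e, Ir25a, Ir40a, Ir41a, Ir68a, Ir76b and Ir93a.

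**Figure D1:**
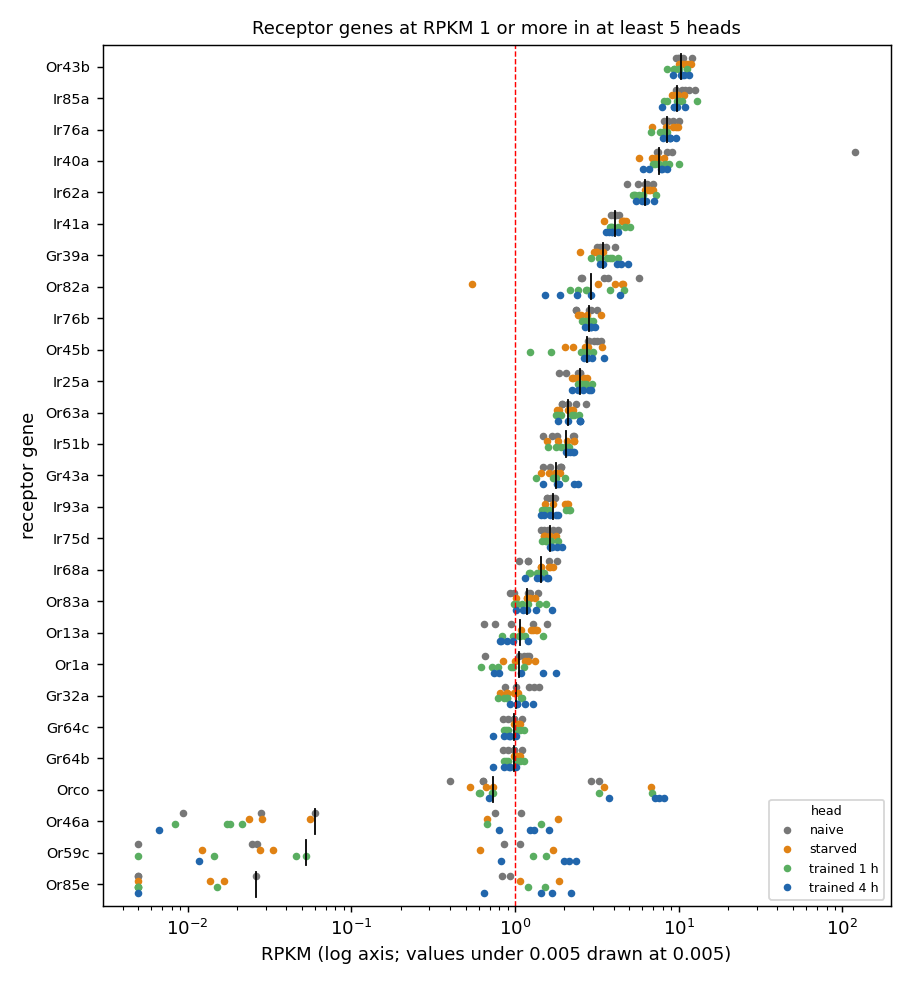
RPKM of the 27 receptor genes that reached 1 RPKM in at least 5 of 21 heads, on a log axis; each point is 1 head, coloured by group, the black tick is the median of the 21 heads, and the dashed line marks 1 RPKM. Values under 0.005 RPKM are drawn at 0.005. Most genes spread little between heads, while Orco, Or46a, Or59c and Or85e fall into separate low and high sets, and Ir40a has 1 naive head at 119 RPKM.

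The co-receptors differed from each other. Ir25a had 2.51 RPKM in the median head (1.87 to 2.96) and Ir76b had 2.85 RPKM (2.35 to 3.36), and both were above 1 RPKM in all 21 heads. Ir8a, the co-receptor of acid-sensing antennal neurons, had 0 to 4 reads per head. The carbon dioxide pair of the antenna was also near the limit of detection, with 1 to 8 reads per head for Gr21a and 1 to 14 for Gr63a. Obp83a and Obp83b, odorant-binding proteins of the antenna, had 0.186 to 0.606 RPKM and 0.183 to 0.761 RPKM. Obp59a and a5, also listed as olfactory accessory genes, were at 0 in the median head. Some of the other olfactory accessory genes listed were above these in every head. ATP8B had 13.7 to 17.0 RPKM, Snmp1 4.34 to 6.66 RPKM, Obp69a 3.90 to 11.4 RPKM and Obp84a 1.57 to 3.01 RPKM. Obp28a had 1.03 to 70.7 RPKM. Amt and lush, also listed, had 0.190 to 0.572 RPKM and 0.232 to 6.69 RPKM, and their ranges overlapped those of Obp83a and Obp83b. The antennal pheromone receptor Or47b had 0 reads in 14 heads and at most 0.0360 RPKM, and Or67d, the receptor for cis-vaccenyl acetate, had 0.189 to 0.519 RPKM. Other receptors known from the antenna stood at 1 RPKM or more in every head: besides Ir40a and Ir41a, Ir93a, which acts with Ir25a in humidity and cool sensing, had 1.71 RPKM (1.44 to 2.17) and Ir68a, of moist-sensing neurons, had 1.44 RPKM (1.06 to 1.80). The methods state that frozen heads were separated from bodies by vortexing or by cutting, without saying which head was handled in which way, and the part of this in the levels was not tested.

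Orco and the receptors of the maxillary palp fell into separate levels across single heads. Orco (chromosome 3R, 5407183 to 5412406 in BDGP6, minus strand) had 0.401 to 0.737 RPKM in 11 heads and 2.92 to 8.11 RPKM in the other 10. Its values were 0.641, 0.638, 0.401, 2.92 and 3.24 RPKM in naive heads 1, 2, 3, 5 and 6, and 6.76, 0.528, 0.660, 0.737 and 3.51 RPKM in starved heads 1 to 5. They were 3.24, 0.604, 0.729, 6.90, 0.609 and 0.729 RPKM in 1-hour heads 1 to 6, and 8.11, 7.20, 3.76, 0.697 and 7.55 RPKM in 4-hour heads 1, 3, 4, 5 and 6. Every group thus held heads of both kinds, with 2 of 5 naive, 2 of 5 starved, 2 of 6 1-hour and 4 of 5 4-hour heads at 2.92 RPKM or more.

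The 7 palp receptors followed Orco head by head. Or46a had 0.670 to 1.82 RPKM in the 10 heads with high Orco and 0.00666 to 0.0603 RPKM in the other 11. Or59c had 0.612 to 2.36 RPKM against 0 to 0.0532 RPKM, and Or85e had 0.648 to 2.19 RPKM against 0 to 0.0263 RPKM. Or85d and Or33c, which is made together with Or85e in 1 class of palp neuron, and Or42a were also higher in all 10 heads than in any of the 11. Or71a alone overlapped, with 0.418 to 1.25 RPKM against 0.177 to 0.433 RPKM. These heads were sorted by Orco, which carries no test. Over all 17559 genes, 18 were higher in each of the 10 heads than in any of the other 11, and 7 of the 18 were members, namely Orco and all palp receptors except Or71a. Among the other 11 was Obp28a, an odorant-binding protein of olfactory sensilla, at 19.9 to 70.7 RPKM against 1.03 to 6.10 RPKM, and asRNA:CR43467, which overlaps Or46a on the opposite strand. The other odorant-binding proteins listed did not separate: lush had 1.65 to 6.69 RPKM in the 10 heads and 0.232 to 5.64 RPKM in the 11. Obp69a overlapped less, with 5.96 to 11.4 RPKM (median 7.96) in the 10 heads and 3.90 to 6.41 RPKM (median 5.09) in the 11. Obp83a (medians 0.383 and 0.280 RPKM) and Obp83b (0.542 and 0.523 RPKM) overlapped as well. The brain and taste genes did not separate: elav had 18.7 to 23.8 RPKM in the 10 heads and 19.3 to 22.5 RPKM in the 11, Gr66a, a marker of bitter neurons, had 0.562 to 1.04 RPKM and 0.478 to 0.882 RPKM, and Ir76b had 2.35 to 3.36 RPKM and 2.35 to 3.17 RPKM.

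**Figure D2:**
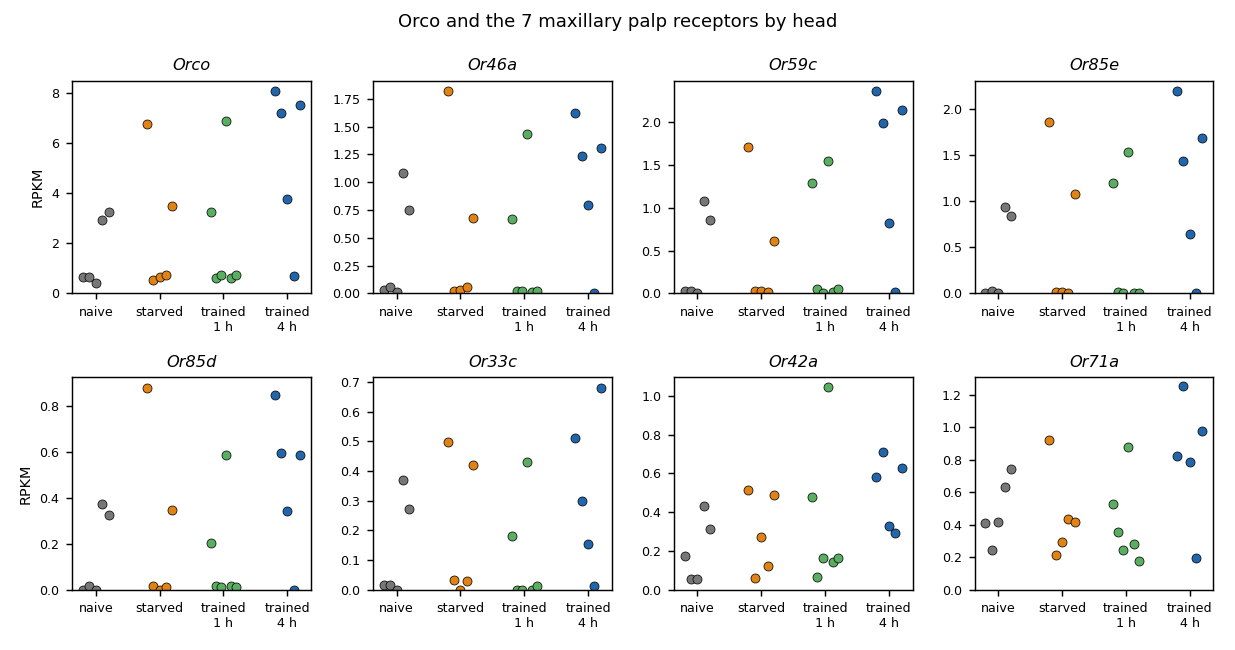
RPKM of Orco and the 7 maxillary palp receptors; each point is 1 head, by group from naive to 4 hours after training, on linear axes that start at 0. Or46a, Or59c, Or85e, Or85d and Or33c lie near 0 in 11 heads and at 0.154 RPKM or more in the same 10 heads, of which 4 are 4-hour heads.

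The ordered sum of the 7 palp receptors was cut at its 2 widest gaps in ratio, so the number of levels, 3, was set by the cuts. It was 0.391 to 0.666 RPKM in 11 heads, 3.88 to 4.90 RPKM in 5 heads and 7.45 to 8.94 RPKM in another 5, and the median of the highest 5 heads was 1.95 times that of the middle 5. Orco kept the same order, with 2.92 to 3.76 RPKM in the middle 5 heads and 6.76 to 8.11 RPKM in the highest 5. Obp28a had 19.9 to 25.7 RPKM in the middle 5 heads and 38.3 to 70.7 RPKM in the highest 5. The middle heads were naive 5 and 6, starved 5, 1-hour 1 and 4-hour 4, and the highest were starved 1, 1-hour 4 and 4-hour 1, 3 and 6. Each level thus drew heads from 3 or more of the 4 groups.

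**Figure D3:**
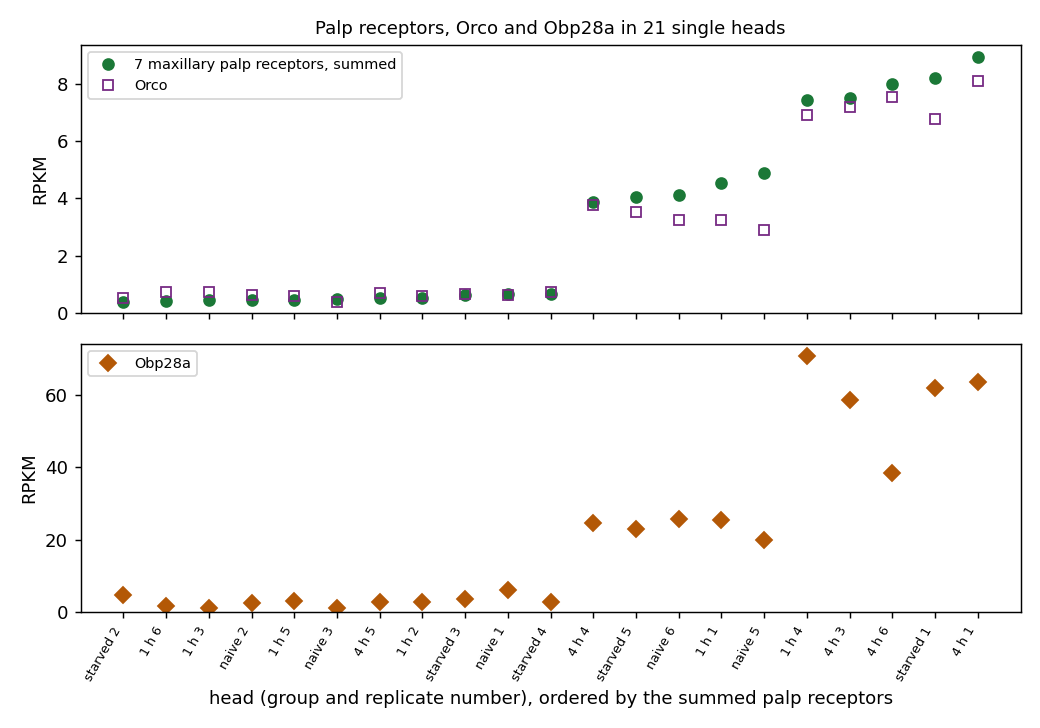
Summed RPKM of the 7 maxillary palp receptors with Orco (top) and Obp28a (bottom) in each of the 21 heads, ordered by the sum; labels give the group and replicate number. The sum steps at 3.88 and again at 7.45 RPKM, and Orco and Obp28a step at the same heads.

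Because of these levels, the comparisons between groups were imprecise for Orco. Groups were compared with limma on log2(RPKM + 1) over the 10501 genes at 1 RPKM or more in at least 5 heads, with Benjamini-Hochberg adjustment over all of them and a threshold of 0.05. On this scale, which understates changes of low genes, Orco differed by 1.27 (SE 0.58, 95% interval 0.06 to 2.48) between 4-hour and naive heads, with a limma adjusted p of 0.226. The difference was 1.01 (SE 0.58) between 4-hour and starved heads, 1.13 (SE 0.55) between 4-hour and 1-hour heads and 0.26 (SE 0.58) between starved and naive heads, with limma adjusted p of 0.322, 0.402 and 0.820. Or59c and Or85e were among the 3 receptor genes with the highest differences in the same 3 comparisons of 4-hour heads, at 0.72 to 0.77 and 0.50 to 0.65, with no adjusted p under 0.270. In all 3 the number of heads with high palp RNA differed between the groups, as given above, and its part in these differences was not tested.

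None of the 27 receptor genes passed the test in any of the 6 comparisons. Over all genes tested, limma called 1.51% between starved and naive heads, 0.552% between 1-hour and starved heads, 6.37% between 4-hour and starved heads, 8.98% between 1-hour and naive heads, 3.40% between 4-hour and naive heads and 0.0857% between 4-hour and 1-hour heads. With 27 genes, these shares correspond to few or no calls, so 0 calls is not a result about the receptors. At an unadjusted p under 0.05 there were 1, 1, 2, 3, 1 and 0 of the 27 in these comparisons, in the same order. These are 3.70%, 3.70%, 7.41%, 11.1%, 3.70% and 0% of the 27, against 19.4%, 13.6%, 22.2%, 28.2%, 20.1% and 12.8% of all genes tested. The 27 were not matched to other genes by level, so these shares do not say that receptor genes change less. The median log2 difference of the 27 was between -0.04 and 0.09, and that of all 10501 genes between -0.01 and 0.00.

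The gene nearest to the threshold was Gr39a, a receptor of bitter neurons. It had 4.46, 3.29, 4.22, 3.46 and 4.89 RPKM in 4-hour heads 1, 3, 4, 5 and 6, against 3.18, 3.06, 2.49, 3.14 and 3.47 RPKM in starved heads 1 to 5. The groups overlapped through starved head 5 and 4-hour heads 3 and 5. The difference was 0.31 on the log2(RPKM + 1) scale (SE 0.09, 95% interval 0.11 to 0.51), with a limma adjusted p of 0.0570. Without 4-hour head 3, 4-hour head 5 or 1-hour head 4, this adjusted p was between 0.0354 and 0.0445, under the threshold. Gr39a lies within the span of Mondo, which is on the opposite strand at 27.2 RPKM in the median head. Naive heads had 3.19 to 4.10 RPKM and overlapped the 4-hour heads.

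A second fit covered lower genes, by limma with voom weights on the recovered reads, over 12171 genes with at least 10 reads in at least 5 heads. It tested 77 receptor genes: 27 Or, 26 Gr and 24 Ir. The remaining 110 members had too few reads to be tested. Over all genes this fit called 0.690% between starved and naive heads, 0.345% between 1-hour and starved heads, 5.09% between 4-hour and starved heads, 7.02% between 1-hour and naive heads, 2.45% between 4-hour and naive heads and 0.107% between 4-hour and 1-hour heads. Of the 77 receptor genes it called 0, 0, 0, 2 (2.60%), 1 (1.30%) and 0 in that order, shares below those of all genes in the comparisons with calls. At an unadjusted p under 0.05 there were 4, 1, 6, 6, 5 and 2 receptor genes. These are 5.19%, 1.30%, 7.79%, 7.79%, 6.49% and 2.60% of the 77, against 17.3%, 12.7%, 20.4%, 26.1%, 18.6% and 12.0% of all genes tested. Many of the 77 had few reads, such as 12 to 37 per head for Ir84a, and the sets were not matched for reads. The lower shares thus do not say that receptor genes change less than others. The 3 genes called were Or45a, Ir94d and Ir84a, all lower in 1-hour or 4-hour heads than in naive heads. These heads differ from naive heads in both starvation and training, and none of the 3 genes was called against starved heads. The 3 calls against naive heads depend on the scaling between heads. With library sizes taken as the sum of recovered reads, where the median gene stood at a log2 fold change of 0.13 in 1-hour and 0.21 in 4-hour heads over naive heads, none of the 3 was called, and Ir25a, Ir75d, Gr77a and Gr39a were called higher in 4-hour than in naive heads.

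Or45a, an odorant receptor known from the larval olfactory organ, fell to 0.397, 0.484, 0.359, 0.339 and 0.408 RPKM in 4-hour heads 1, 3, 4, 5 and 6, against 0.519, 0.625, 0.608, 0.672 and 0.631 RPKM in naive heads 1, 2, 3, 5 and 6. Each 4-hour head was below each naive head, and these values rest on 56 to 88 and 76 to 131 reads. The log2 fold change was -0.63 (SE 0.14, 95% interval -0.93 to -0.33, limma adjusted p of 0.0293). Between 4-hour and starved heads it was -0.50 (SE 0.14, limma adjusted p of 0.0522), and starved head 1, at 0.394 RPKM, lay among the 4-hour values. That difference was called without 1-hour head 1 or 3, starved head 1 or naive head 1, at adjusted p of 0.00737 to 0.0479. The difference between 4-hour and naive heads was no longer called without 4-hour head 1, 4, 5 or 6 or naive head 2, 3 or 6, at adjusted p of 0.0592 to 0.0742. Or45a lies on chromosome arm 2R within the spans of CG13739 and CG13954, both on the opposite strand, at 21.5 and 39.6 RPKM in the median head. Reads from their introns cannot be told from its own.

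Ir94d (chromosome 3R, 23402808 to 23405139 in BDGP6, plus strand) fell to 0.201, 0.215, 0.225, 0.182, 0.229 and 0.192 RPKM in 1-hour heads 1 to 6, against 0.388, 0.239, 0.347, 0.378 and 0.387 RPKM in naive heads 1, 2, 3, 5 and 6. All 1-hour heads were below all naive heads, the nearest being 1-hour head 5 and naive head 2. The log2 fold change was -0.71 (SE 0.19, 95% interval -1.10 to -0.32, limma adjusted p of 0.0306). It was no longer called without 1-hour head 4 or 5 or naive head 3, 5 or 6, at adjusted p of 0.0526 to 0.0715. Between starved and naive heads the log2 fold change was -0.37 (SE 0.19, adjusted p of 0.324), and starved head 5, at 0.448 RPKM, was above all naive heads. Ir94d shares 429 exonic nt with CG17380 on the opposite strand, which had 0.109 RPKM in the median head.

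Ir84a (chromosome 3R, 7406869 to 7409384 in BDGP6, plus strand), the receptor for phenylacetic acid that promotes male courtship, fell to 0.305, 0.165, 0.117, 0.158, 0.148 and 0.200 RPKM in 1-hour heads 1 to 6, against 0.295, 0.229, 0.319, 0.339 and 0.237 RPKM in naive heads 1, 2, 3, 5 and 6. The groups overlapped through 1-hour head 1, and the values rest on 13 to 28 and 16 to 37 reads. The log2 fold change was -0.69 (SE 0.20, limma adjusted p of 0.0461). The call was lost without any 1 of 16 of the 21 heads, at adjusted p of 0.0515 to 0.105, and held without 4-hour head 1 or 4, 1-hour head 1 or 6 or starved head 3. Starved heads had 0.170 to 0.205 RPKM, all below all naive heads, with a log2 fold change of -0.60 (SE 0.22) and a limma adjusted p of 0.170. The fat body gene Lsp2 also fell in 1-hour against naive heads, with a log2 fold change of -5.79 (SE 1.65, limma adjusted p of 0.0410) in the same fit. In 4-hour against naive heads, the comparison in which Or45a was called, Lsp2 differed by -6.01 (SE 1.82, adjusted p of 0.0858) in this fit and fell by 5.26 (adjusted p of 0.0371) in the RPKM fit. The photoreceptor genes ninaE and Arr2, an arrestin, rose there by 0.43 and 0.35 on the log2 scale of the reads, both at an adjusted p of 0.0332. The other photoreceptor genes listed were trp, inaD and ninaA. In 4-hour against naive heads, trp had 394 to 468 against 332 to 516 RPKM, and inaD 222 to 237 against 174 to 233 RPKM. These 2 overlapped, while ninaA had 70.9 to 79.7 against 57.0 to 70.8 RPKM. The part of fat body and eye RNA in these 3 differences from naive heads was not tested.

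**Figure D4:**
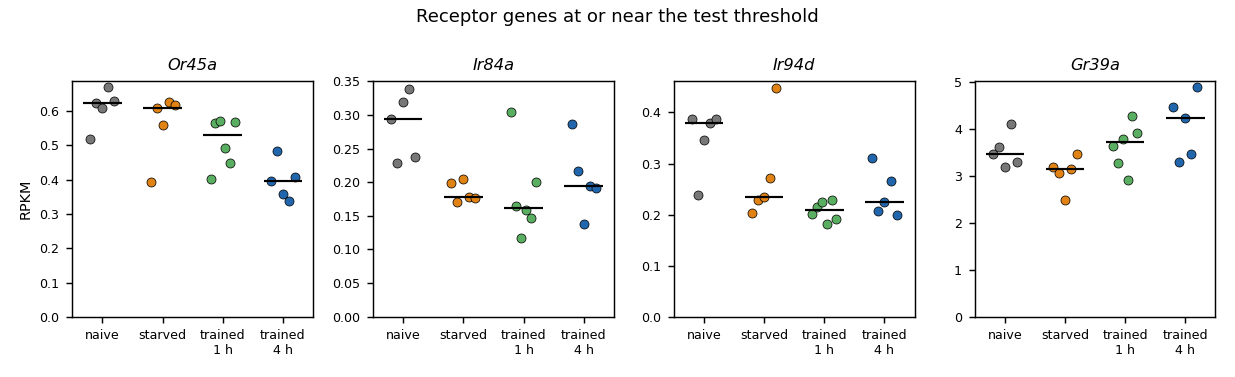
RPKM of Or45a, Ir84a, Ir94d and Gr39a; each point is 1 head, by group from naive to 4 hours after training, the line is the group median, and the axes start at 0. The 5 4-hour heads lie below the 5 naive heads for Or45a and the 6 1-hour heads below them for Ir94d, while 1 1-hour head overlaps for Ir84a and 3 heads for Gr39a against starved heads.

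The 9 sweet receptors answer sugars in taste neurons and were of interest because the flies were starved and then trained with sucrose. Gr43a is a fructose receptor that also works inside the brain, Gr5a is a trehalose receptor, Gr64a responds to sucrose and maltose, Gr61a to glucose and Gr64e to glycerol, and Gr64f acts as a shared co-receptor. Gr64a to Gr64f lie side by side on chromosome 3L, from 4026769 to 4037575 in BDGP6, on the plus strand. Their values are not all separate measurements. Gr64b and Gr64c have the same annotated gene model of 2858 nt and the same reads in all 21 heads, and Gr64d and Gr64e share 2882 exonic nt and had equal reads in 14 heads. Gr5a shares 1108 nt with asRNA:CR44958, Gr43a shares 155 nt with Dhx15 and Gr64f shares 53 nt with CG11593, all on the opposite strand.

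No sweet receptor passed the test in any comparison with the deposited scaling. In the reads fit, 0.107% to 7.02% of all genes tested were called per comparison. No call among so few genes is thus not a result about the sweet receptors. When totals of RPKM were made equal between heads, Gr43a was called higher in 4-hour than in naive heads, by 0.32 against a median of 0.30 for all genes on the log2(RPKM + 1) scale. Gr43a was the highest, at 1.64, 1.91, 1.90, 1.88 and 1.49 RPKM in naive heads, 1.87, 1.62, 1.43, 1.76 and 1.77 RPKM in starved heads, 1.74, 1.79, 1.75, 1.72, 1.34 and 2.01 RPKM in 1-hour heads and 1.85, 1.81, 2.41, 1.47 and 2.29 RPKM in 4-hour heads. The 4 groups overlapped, and the 2 highest values were in 4-hour heads 4 and 6. Gr43a differed by 0.19 on the log2 scale of the reads (SE 0.13, 95% interval -0.09 to 0.47) between 4-hour and starved heads, and by -0.07 (SE 0.14, 95% interval -0.35 to 0.22) between starved and naive heads. The limma adjusted p were 0.456 and 0.819.

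The gene model of Gr64b and Gr64c had 0.737 to 1.02 RPKM in 4-hour heads and 0.989 to 1.07 RPKM in starved heads, with naive heads at 0.847 to 1.11 RPKM and 1-hour heads at 0.854 to 1.14 RPKM. The log2 fold change between 4-hour and starved heads was -0.22 (SE 0.10, 95% interval -0.43 to -0.01), with a limma adjusted p of 0.228. It was the only 1 of 48 gene and comparison pairs of the sweet receptors under 0.05 unadjusted. These pairs leave out Gr64c and count Gr64d and Gr64e apart. Of all genes tested in the reads fit, 12.0% to 26.1% were under 0.05 per comparison, without matching for reads per gene. Gr64d had 0.659 to 0.984 RPKM over all heads, Gr5a 0.270 to 0.687 RPKM, Gr64f 0.155 to 0.501 RPKM and Gr64a 0.0621 to 0.358 RPKM, with overlap between all groups. Gr61a had 0.0527 to 0.293 RPKM in 19 heads, 1.11 RPKM in naive head 2 and 0.598 RPKM in 1-hour head 3. Its log2 fold change between 4-hour and naive heads was -0.81 (SE 0.56), the lowest of any sweet receptor, with a limma adjusted p of 0.447. Without naive head 2 it was -0.23 (SE 0.46), and the difference from naive heads was 0.47 in starved and 0.50 in 1-hour heads, against -0.11 and -0.08 with that head.

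Over the 8 sweet receptors other than Gr64c and 6 comparisons, the lowest limma adjusted p was 0.228 in the reads fit. Gr64d and Gr64e count there as 2 genes, though they share most of their exons. The 95% intervals reached from -1.98 to 1.41, ends set by Gr61a, with 4 to 112 reads per head, and Gr64a, with 5 to 25. For Gr43a and Gr64b, which have 79 to 218 and 95 to 194 reads per head, every interval lay between -0.43 and 0.47. The summed RPKM of the 9 sweet receptors was 6.12 to 7.01 in naive heads, 6.29 to 7.09 in starved heads, 5.66 to 7.64 in 1-hour heads and 6.27 to 6.66 in 4-hour heads. The group medians of this sum were 6.52, 6.53, 6.44 and 6.50 RPKM in that order. It counts the shared models of Gr64b with Gr64c and of Gr64d with Gr64e once for each gene. With each model counted once the medians were 4.73, 4.61, 4.74 and 4.82 RPKM, and the groups overlapped in both sums.

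No bitter receptor, Gr39a included, passed the test in any comparison as deposited. Of 5 core bitter receptors listed, 2 reached 1 RPKM in 5 heads. The RPKM fit called 0.0857% to 8.98% of all genes tested per comparison, and the reads fit 0.107% to 7.02%. No call among so few genes is thus not a result about the bitter receptors. Gr32a, which also takes part in pheromone taste, had 0.810 to 1.05 RPKM in starved heads against 0.865 to 1.39 RPKM in naive heads, a difference of -0.16 (SE 0.08) on the log2(RPKM + 1) scale with a limma adjusted p of 0.2495. With sample quality weights in the reads fit, Gr32a was called lower against naive heads in starved heads (-0.42, limma adjusted p of 0.0335) and in 1-hour heads (-0.39, limma adjusted p of 0.0329). Gr66a had 0.478 to 1.04 RPKM and Gr33a, a broadly used bitter co-receptor, had 0.422 to 0.844 RPKM over the 21 heads. Among other gustatory receptors, 0 of 44 reached 1 RPKM in 5 heads, and Gr28b, known for warmth and light sensing, had 0.208 to 0.328 RPKM.

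Single heads stood apart for some receptors. Ir40a (chromosome 2L, 22189526 to 22214376 in BDGP6, minus strand) had 119 RPKM in naive head 2, from 19068 reads, and 5.72 to 10.1 RPKM in the other 20 heads. The difference of -0.87 (SE 0.50) between 4-hour and naive heads on the log2(RPKM + 1) scale was -0.13 (SE 0.11) without that head. Naive head 2 also held the most reads of other members, chosen after their values were seen. Or67b had 60 reads there and at most 4 in any other head, and Or19b had 16 and at most 3. Gr59e and Gr59f had 29 reads each there and at most 11 elsewhere. Every comparison with naive heads includes this head. Or82a, an antennal receptor, had 0.543 RPKM in starved head 3 and 1.52 to 5.71 RPKM elsewhere. Or7a, chosen after its values were seen, had 2.09 RPKM in starved head 5 and 0.950 RPKM in starved head 2, and 0.0429 to 0.542 RPKM in the other 19 heads. Its log2 fold change between starved and naive heads was 2.23 (SE 0.75), with a limma adjusted p of 0.143. Sample quality weights brought this to 2.08 (limma adjusted p of 0.0387), and gave -2.11 (limma adjusted p of 0.0133) between 4-hour and starved heads.

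The neighbours Ir75a and Ir75b, receptors of acid-sensing antennal neurons that were also chosen after their values were seen, fell into separate levels as well. Ir75a had 0.194 to 1.52 RPKM in 10 heads and 0 to 0.0373 RPKM in the other 11, at most 4 reads each, and Ir75b had 0.125 to 1.37 RPKM in the same 10 heads and 0 to 0.0269 RPKM in the 11. Those 10 heads were naive 2, 5 and 6, starved 1 and 3, 1-hour 3, 4 and 6 and 4-hour 1 and 4. They were not the heads with high Orco, of which 6 were among them. Ir75c, the next gene of the cluster, stayed at 0.0307 RPKM or less in all heads, and Ir75d, which lies elsewhere on chromosome 3L and within COX6AL2, had 1.43 to 1.93 RPKM throughout.

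Other genes of smell and taste organs had no call. Of 16 accessory genes listed for these organs, 14 were tested in the reads fit and 10 in the RPKM fit by limma, and none of these was called. At most 7.02% and 8.98% of all genes were called per comparison in these fits, so no call among so few genes is not a result about them. At an unadjusted p under 0.05 there were 10 of 84 gene and comparison pairs in the reads fit and 10 of 60 in the RPKM fit. Over all genes tested, 12.0% to 26.1% and 12.8% to 28.2% were under 0.05 per comparison in these fits. Obp59a and a5 had too few reads to be tested. ppk23 and ppk29, ion channel subunits of pheromone-sensing taste neurons, had 0.271 to 0.802 RPKM and 2.70 to 4.64 RPKM over the 21 heads, and Obp49a, an odorant-binding protein of taste organs, had 114.6 to 208 RPKM. Among the tissue markers, ninaE had 13453 to 15139 RPKM in 4-hour heads against 8549 to 12042 RPKM in starved heads, a difference of 0.45 (SE 0.13, limma adjusted p of 0.0464). Naive heads had 8881 to 12075 RPKM of ninaE, also below all 4-hour heads. Arr2 had 6153 to 6666 RPKM in 4-hour heads against 4084 to 5483 RPKM in naive heads. The fat body gene apolpp, a lipoprotein, had 6.57 to 390 RPKM in 1-hour heads against 340 to 1373 RPKM in naive heads, a difference of -3.04 (SE 0.91, limma adjusted p of 0.0431). The egg marker Vm26Aa had a median of 0.0565 RPKM, but reached 12.2 RPKM in a 4-hour head and 14.1 RPKM in a 1-hour head, against at most 0.154 RPKM in naive and 0.0779 RPKM in starved heads. The gut marker alphaTry had a median of 0.0237 RPKM and 1.195 RPKM at the highest. The part of egg RNA in the receptor values was not tested.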

How the data were processed

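Polyadenylated RNA of single female heads was sequenced by the authors as non-stranded libraries, 1 per head. The authors deposited 1 table of RPKM values for 17559 genes, with a library size that includes a scaling between heads. The submitters' processing notes name CASAVA 1.8.2, TopHat2 2.0.13, edgeR 3.18.1 and build dm6, whereas a second paragraph of the study's methods names an older build, and which applies to this table was not settled. Identifiers were matched to current symbols (17253 of 17559). Coordinates are from the BDGP6.54 annotation.

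Reads were recovered from the RPKM steps: 99.76% of genes above 0 gave whole reads in all heads, within 0.02 reads. Counting error and the spread between heads both enter the tests. Groups were compared with limma 3.58.1 (R 4.3.3), 1 mean per group over all 21 heads, on log2(RPKM + 1) for genes at RPKM 1 or more in 5 heads, and with voom weights on recovered reads for genes with 10 reads or more in 5 heads. P-values were adjusted by Benjamini-Hochberg over all genes tested, with a threshold of 0.05. The scripts were tested on simulated data. Alternatives changed the pseudocount, filters, scaling, variance model, weights and heads used, and added the replicate number as a block.

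Genes named were the receptor genes at RPKM 1 or more in 5 heads, the sweet receptors, the co-receptors and the carbon dioxide pair, every receptor gene called, the 3 highest and 3 lowest fold changes per comparison, and called genes of the accessory and tissue lists. Other genes are given as class examples or were chosen after their values were seen. Members and lists were chosen with earlier results of these data known.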

Additional observations from a re-analysis of the deposited data

Results flagged for a closer look

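Among 39 named receptor genes in 4 groups, 156 sets of heads were checked for a single head far from the rest of its group, and 7 values stood apart. Chance alone picks out about 1 in 20 such sets. Receptor genes outside the 39 were not checked in this way. Ir40a had 118.9 RPKM in naive head 2 and 7.40 to 9.13 RPKM in the other naive heads. Gr61a had 1.11 RPKM in the same head, against 0.110 to 0.2496 RPKM in the others. Ir94d had 0.239 RPKM there too, against 0.347 to 0.388 RPKM. In 1-hour head 3, Gr61a had 0.598 RPKM, and the other 1-hour heads had 0.133 to 0.293 RPKM. Ir94d had 0.448 RPKM in starved head 5 and 0.203 to 0.271 RPKM in the other starved heads. Ir41a had 3.52 RPKM in starved head 1, below the 4.54 to 4.76 RPKM of the others. Or1a had 0.653 RPKM in naive head 6, below 1.06 to 1.21 RPKM in the others.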

How the results depend on the processing

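The number of receptor genes at RPKM 1 or more in 5 heads, 27, was 42 at RPKM 0.5 and 15 at RPKM 2. In the RPKM fit, the count of 0 became 1 for 4-hour against starved heads with the same 75th percentile (Gr39a), 1 for 1-hour against naive heads with no filter, with a filter of RPKM 0.1 (Ir94d in both) or with the same total RPKM (Ir25a), and for 4-hour against naive heads 1 with either filter (Or45a) and 5 with the same total RPKM. That rescaling put the median gene at 0.30 in this comparison, with 3148 genes higher and 129 lower over all genes, against 179 and 178 as deposited. In the reads fit, sample quality weights gave 3 calls for starved against naive (Or7a, Ir84a, Gr32a), 5 for 4-hour against starved (Or7a, Or13a, Or45a, Gr97a, Gr77a), 3 for 1-hour against naive (Ir84a, Gr32a, Ir94d) and 4 for 4-hour against naive heads (Or45a, Ir84a, Ir85a, Ir94d). A filter of 50 reads gave 1 for 4-hour against starved (Or45a) and 0 for 1-hour against naive heads, where Ir84a and Ir94d, with at most 37 and 40 reads, could not enter, and library sizes from the summed reads gave 1, 0 and 4 for 4-hour against starved, 1-hour against naive and 4-hour against naive heads. Leaving out each head in turn gave 0 to 1 calls for 4-hour against starved heads in both fits, and in the reads fit 0 to 2 for 1-hour against naive and 0 to 1 for 4-hour against naive heads. The cause of the other changes was not tested. With the replicate number as a block, 1 gene (Ir94d) was called for 1-hour against naive heads in place of 2, and the other counts did not move. Same-numbered heads correlated at a median of -0.03 over 27 pairs, 8 of them over 0.1, so the numbers were not taken as pairs. No called difference turned its sign; differences not called could turn theirs, as Gr61a did without naive head 2, to 0.47 in starved and 0.50 in 1-hour against naive heads. Depth limits the lowest genes: 90 members had at most 10 reads in every head.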
